A study of Homo sapiens with 17 samples.

Results

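The 916 regions described here are the ATAC-seq peaks that the authors' annotation places in a 5′ untranslated region (5′ UTR), out of 58372 peaks with counts. They were taken by that annotation alone, whatever their accessibility, and each was set beside the RNA of the gene the annotation names. HepG2, a hepatocellular carcinoma line labelled as a wild-type hepatocyte, had been grown for 4 days with 5-azacytidine at 0 µM (the control), 2 µM or 10 µM, with the medium renewed daily. ATAC-seq, which counts transposase cuts in open chromatin, gave 3 libraries from control cells, 3 from the 2 µM dose and 2 from the 10 µM dose, and RNA-seq gave 3 libraries at each dose. The design asked how expression and accessibility changed with dose. All libraries are from 1 cell line, and the labels call them biological replicates without saying that they came from separate cultures, so p-values measure the spread between these libraries only.

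The 5′ UTR is the stretch of a transcript that lies ahead of its coding sequence. It begins at the transcription start site and, in many genes, continues into exons that lie far downstream. Chromatin there is often open because the promoter is next to it, or because a second promoter inside the gene uses that exon as its first. 5-Azacytidine is a cytidine analogue that is built into nucleic acids and, in DNA, traps DNA methyltransferases, so that CpG methylation is lost as cells divide.

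All peaks have the same length (positions are hg38), and none overlaps another of the set. The peaks name 867 genes on 23 chromosomes, and 44 of these genes have 2 or more. The annotation reserves its promoter class for peaks from 1000 bases upstream to 100 bases downstream of a start, so most 5′ UTR peaks lie just past that limit. In 847 the peak lies downstream of the start, with a median distance over all 916 of 262 bases and a maximum of 64042 bases, and 69 lie upstream of the start that the annotation chose. Gene spans from a RefSeq table of the same build place 851 peaks inside the named gene and 64 outside it, and 1 gene has no entry. The 64 include 3 of the 4 peaks that name RHOF and both that name RERE. There the UTR may belong to a transcript of another gene than the one whose RNA is given.

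Sequence next to the start sites is shown for 7 genes, to let the CpG content be read beside the values. The first 5 are the members with a changed peak at 10 µM whose peak holds the RefSeq start (GRCh38.p14) and the 30 bases before it, and HRH1 and TRAF1 were added because their peaks rose at both doses, with starts 67 and 369 bases from the peak edge. Each line gives those 30 bases on the strand of the gene, 5′ to 3′, with CG dinucleotides in capitals.
ANPEP: gatataagccCGgcctggggctgctcCGtt
ETFB: gaacttttcctgggagcctgtcagtcaCGc
ACOT7: accaagccCGgtgtggcagggagctgggac
BCAR3: cCGctgagggCGcCGcCGctttaaaaCGgt
PIK3R3: gtatttaccaagagcttgctgatgttttca
HRH1: cagatgacaCGgagctgtCGgcttcCGtgt
TRAF1: gccctgaggagtctgtggtcctaggccttg
They lie at chr15:89806629-89806658 (minus strand), chr19:51354843-51354872 (minus), chr1:6358930-6358959 (minus), chr1:93680855-93680884 (minus), chr1:46131772-46131801 (minus), chr3:11137208-11137237 (plus) and chr9:120926797-120926826 (minus), in that order. BCAR3, an adaptor protein, holds 5 CG in these bases, HRH1 3, ANPEP 2, ETFB and ACOT7 1 each, and PIK3R3 and TRAF1 none.

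A wider RefSeq window, 250 bases before and 50 after the start, could be matched for 751 of the 916 peaks by gene symbol. These windows held a median of 28 CG, against 14 over all 35116 windows of that length, and 9.72% held 5 or fewer, against 33.7% of all windows. In the 473 members whose peak lay within 1000 bases downstream of the start the median was 29. Among those near members it was 28 for the 126 peaks that rose at 10 µM, 23 for the 38 that fell and 30 for the 309 that did not pass the test. For the 27 near members that rose at 2 µM the median was 21, against 38 for the 7 that fell and 30 for the 439 that passed in neither direction. Only 27 of the peaks overlap the window of their own gene, so these counts describe the neighbouring promoter and not the peak itself. The windows of HRH1 and TRAF1 hold 11 and 3 CG.

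Depth differed between libraries. Counts in all peaks ran from 2896671 to 7864321 per ATAC library, of which the 5′ UTR peaks took 1.31% to 1.44%, and RNA libraries held 35553052 to 46430168 counts in genes. The median 5′ UTR peak lay at 11.6 to 13.9 CPM (counts scaled to library size, after TMM scaling) in every ATAC library, and the lowest single count in any of them was 3. A rise or fall below means an adjusted p under 0.05 by edgeR's quasi-likelihood test, with Benjamini-Hochberg adjustment over all peaks or all genes. Fold changes are on the log2 scale with their standard error (SE).

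At 2 µM against 0 µM, 109 of the 916 peaks rose (11.9%) and 23 fell (2.51%). Over all 58372 peaks 15.5% rose and 7.30% fell. The changes ran from -1.10 to 2.95 with a median of 0.06, against 0.02 for all peaks. The number that rose was 65 without 0 µM replicate 2. The number that fell was 49 when either of the 10 µM libraries was left out of the shared fit.

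At 10 µM against 0 µM, 255 peaks rose (27.8%) and 145 fell (15.8%), where 29.9% and 27.6% of all peaks did. The changes ran from -3.56 to 4.31, and the median of 0.14 stood beside 0.05 for all peaks. From 2 to 10 µM, 191 rose (20.9%) and 156 fell (17%), against 27.5% and 27.6% of all peaks, with a median change of 0.09 beside 0.06. Which direction led in that step depended on the scaling and on 1 library: with total counts alone 157 rose and 179 fell, with a member median of 0.0046, and without 10 µM replicate 2 the counts were 165 and 165. Beside them, of 19763 promoter peaks 20.5% rose and 14.9% fell at 10 µM against 0 µM, of 3962 exon peaks 29.0% and 30.5%, and of 2514 peaks in 3′ UTRs 22.8% and 39.9%. At that dose the share of 5′ UTR peaks that fell thus lay between those of the promoters and of the other exonic classes. These shares were not tested against each other.

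The 5′ UTR peaks differed among themselves by distance from the start. Of 706 peaks whose nearest edge lay up to 1000 bases downstream, 26.5% rose and 10.3% fell at 10 µM. Of the 210 that lay farther downstream or upstream, 32.4% rose and 34.3% fell. Over all peaks 29.9% rose and 27.6% fell, so the near peaks departed more from the whole in falls than the far ones did. At 2 µM the near peaks rose in 8.07% and the others in 24.8%, against 15.5% of all peaks. The finer steps ran the same way at 2 µM: 5.51% of 363 peaks rose up to 250 bases from the start, 8.73% of the next 252 up to 500 bases, 16.5% of 91 up to 1000 bases, 27.3% of 66 up to 3000 bases and 29.3% of 75 beyond. The share that fell at 10 µM ran from 7.99% in the nearest step to 38.7% in the farthest. These are descriptions, with no test of the trend.

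**Figure D1:**
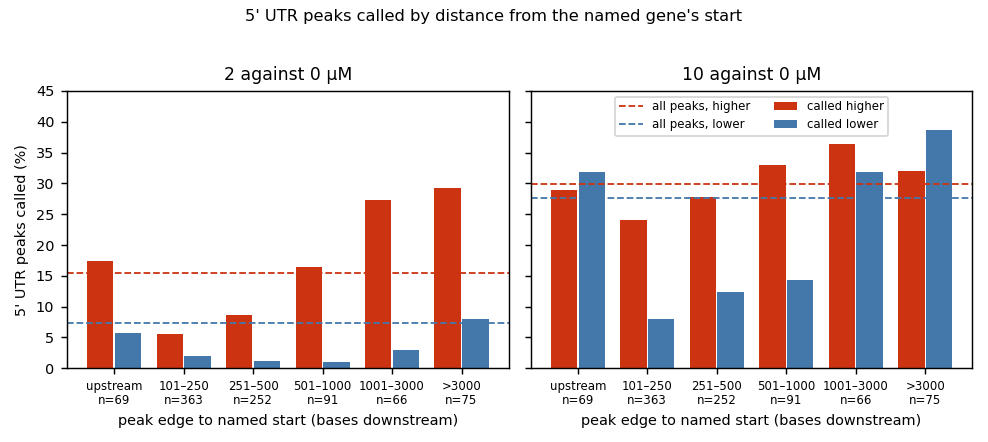
Percentage of 5′ UTR peaks that rose or fell (y axis) by distance of the peak edge from the annotated start in bases (x axis), at 2 and at 10 µM against 0 µM, with dashed lines for all 58372 peaks. At 10 µM the share that fell goes from 7.99% nearest the start to 38.7% beyond 3000 bases.

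The 8 largest rises at 10 µM were at IL1RL1, DIO2, ZCCHC9, HRH1, SPATA4, CSF2RB, SEPTIN10 and PFKFB2. IL1RL1 encodes the receptor of interleukin 33, a cytokine alarm signal. Its peak (chr2:102312960-102313460) stood at 1.21, 0.95 and 1.33 CPM in the 0 µM libraries, 2.41, 3.78 and 2.05 at 2 µM, and 20 and 26.5 at 10 µM, a rise of 4.31 (SE 0.29, adjusted p = 8.8e-14) at the high dose. Both 10 µM libraries lay far above every other library, and the 2 µM libraries lay above the controls. The rise at 2 µM (1.15) just passed the test. It did not pass with RLE size factors or DESeq2, with any control library left out, or with 2 µM replicate 1 or 2 left out. Its adjusted p went up to 0.196 without 0 µM replicate 2.

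DIO2 encodes a deiodinase that makes active thyroid hormone. Its peak (chr14:80215757-80216257) held 1.21, 1.90 and 1.89 CPM in the controls, 4.81, 4.81 and 4.64 at 2 µM, and 36.4 and 32.4 at 10 µM. The groups did not overlap, and the rise at the low dose was 1.44 (SE 0.31, adjusted p = 0.000882), and that at the high dose 4.30 (SE 0.23, adjusted p = 1.17e-15). Its RNA had 2, 0 and 21 counts over the 3 libraries of each dose and was not tested, so the more accessible UTR stood beside a transcript close to the limit of detection.

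HRH1 encodes a G protein-coupled receptor for histamine. Its peak (chr3:11137305-11137805), 212 bases from the annotated start, held 2.18, 1.22 and 1.33 CPM in the controls, 4.12, 4.47 and 6.41 at 2 µM, and 25 and 19.8 at 10 µM. It rose by 1.82 (SE 0.34, adjusted p = 0.000174) and then by 3.89 in all (SE 0.28, adjusted p = 2.24e-13), with each dose above the one before in every library. The promoter peak of the same gene, 65 bases away, went from 4.13 to 11.1 to 56.0 CPM and rose by 3.71 at 10 µM, so the UTR and promoter opened side by side. HRH1 RNA held 0, 0.05 and 0.08 CPM in the controls, 0.38, 0.73 and 0.43 at 2 µM, and 0.96, 0.60 and 1.52 at 10 µM. That is a rise of 4.43 (SE 0.75, adjusted p = 0.000348) at 10 µM from 5 counts in all controls. At 2 µM the RNA rise was 3.43 (adjusted p = 0.0234). It did not pass without 0 µM replicate 1 (0.0652) or replicate 2 (0.061), or without 2 µM replicate 2 (0.0961). Nor did it pass with the 0 and 2 µM libraries paired by number (0.0664) or with only these 2 doses in the fit.

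TRAF1 encodes an adaptor of tumour necrosis factor receptors. Its peak (chr9:120925927-120926427) held 3.64, 2.99 and 3.98 CPM in the controls, 7.90, 6.19 and 7.91 at 2 µM, and 23.9 and 31.1 at 10 µM, and rose by 1.10 (SE 0.26, adjusted p = 0.0021) and 2.96 (SE 0.22, adjusted p = 6.9e-13). The annotated promoter peak of TRAF1 changed by -0.21 and did not pass. Its RNA went from 0.34, 0.41 and 1.15 CPM at 0 µM through 3.49, 2.33 and 2.2 to 14.8, 22.9 and 24.9, a rise of 5.01 (SE 0.45, adjusted p = 2.75e-06) at 10 µM. Accessibility in the UTR and RNA were thus both ordered by dose, and the RNA groups did not overlap. The RNA rise at 2 µM (2.05, adjusted p = 0.0165) did not hold without 0 µM replicate 1 (0.0605) or replicate 2 (0.052), or without 2 µM replicate 1 (0.0716). Nor did it hold with paired libraries (0.0582) or with only these 2 doses in the fit.

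SPATA4 and CSF2RB had next to no RNA. The peak of SPATA4, named for its expression in spermatogenesis, went from 1.75 ± 1.37 to 4.14 ± 1.48 to 20.7 ± 0.69 CPM and rose by 3.75 at 10 µM (SE 0.33, adjusted p = 1.92e-11), beside 0, 11 and 9 RNA counts at the 3 doses. CSF2RB, the shared beta subunit of several cytokine receptors, had a peak that went from 2.42 ± 0.86 to 4.55 ± 0.77 to 30.2 ± 4.30 CPM, a rise of 3.72 (SE 0.24, adjusted p = 3.86e-14), beside 0, 0 and 2 RNA counts.

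IL31RA, chosen after its values were seen, encodes the receptor of interleukin 31. Its UTR peak rose from 4.38 ± 1.00 (SD, n = 3) to 39.0 ± 1.60 CPM (SD, n = 2), by 3.17. Its RNA rose by 4.63 from 7 counts in the controls. Of the leukocyte markers, the RNA of PTPRC was at 0 in every library, and CD68 stood at means of 0.09, 0.02 and 0.17 CPM at the 3 doses.

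**Figure D2:**
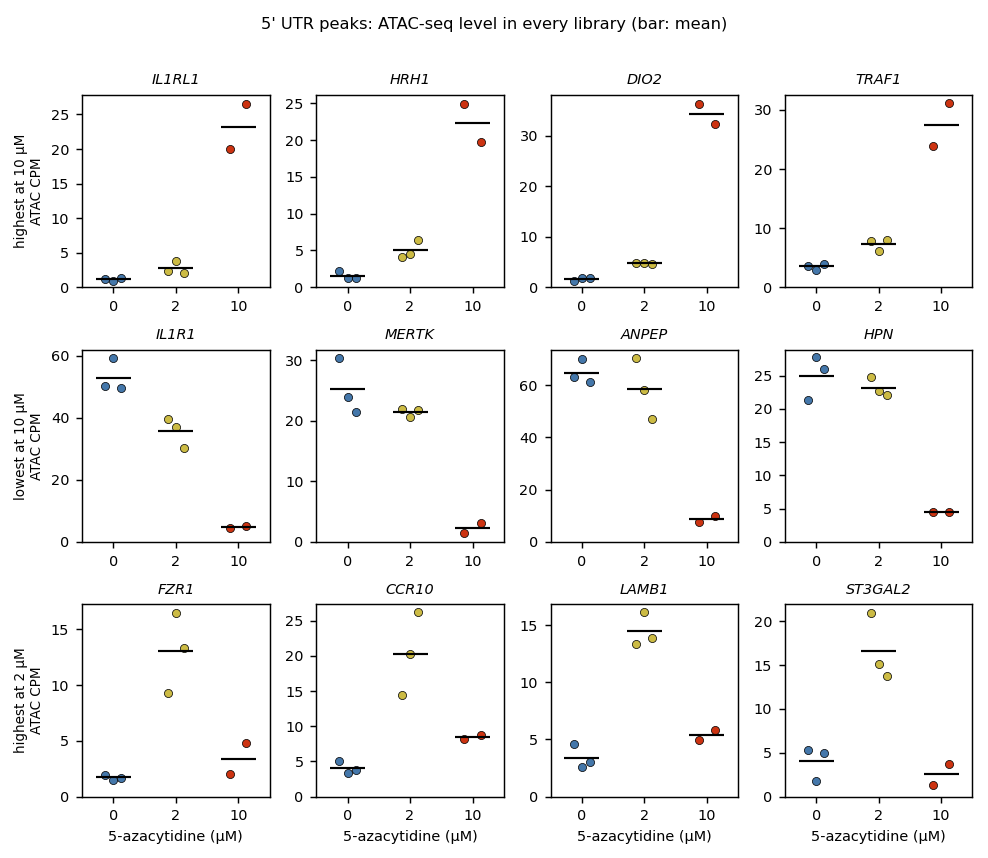
ATAC CPM (y axis) of 12 5′ UTR peaks in each library, by dose of 5-azacytidine in µM (x axis); points are libraries and bars are means. IL1RL1, HRH1, DIO2 and TRAF1 are highest at 10 µM, IL1R1, MERTK, ANPEP and HPN lowest at 10 µM, and FZR1, CCR10, LAMB1 and ST3GAL2 highest at 2 µM.

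Several rising peaks sat in genes already transcribed. SEPTIN10, a cytoskeletal GTPase, had a peak 8325 bases past its start that went from 2.80 ± 0.73 to 7.95 ± 1.15 to 33.0 ± 1.49 CPM, a rise of 3.60 (SE 0.22, adjusted p = 1.17e-14), while its promoter peak did not pass the test (-0.29) and its RNA rose by 1.15 (adjusted p = 0.000778). ZCCHC9, a zinc finger protein, had 2 UTR peaks, of which the one 913 bases from the start rose by 1.07 and the one 1849 bases away by 4.01, from 1.40 ± 0.57 to 24.1 ± 1.78 CPM. Its RNA rose by 0.85, less than either peak. KLHL21, a substrate adaptor of a ubiquitin ligase, had a peak that held 10.2, 6.93 and 9.66 CPM in the controls, 16.8, 19.6 and 15.5 at 2 µM, and 18.5 and 27.4 at 10 µM. Its RNA stood at 136, 144 and 120 CPM, then 180, 146 and 123, then 840, 870 and 766, a rise of 2.63 (SE 0.19, adjusted p = 6.61e-07) at 10 µM and no call at 2 µM (0.17). The peak had therefore risen at 2 µM (0.96, adjusted p = 0.000732), where no change in RNA passed.

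PFKFB2, which sets the level of a regulator of glycolysis, is a case with no RNA call: its peak rose from 1.51 ± 0.73 to 16.1 ± 1.19 CPM (3.46, adjusted p = 1.9e-11) and its RNA moved from 37.9 ± 6.58 to 48.1 ± 3.25 CPM (adjusted p = 0.146). UPP1, chosen after its values were seen, encodes uridine phosphorylase, an enzyme of pyrimidine salvage. Its UTR peak held 2.67, 2.72 and 3.60 CPM in the controls, 9.62, 8.25 and 8.32 at 2 µM, and 10.5 and 10.2 at 10 µM, and rose by 1.53 (SE 0.26, adjusted p = 6.44e-05) and 1.78. Its promoter peak, only 184 bases away, stayed at 17.7, 17.4 and 17.9 CPM on average and passed no test. UPP1 RNA rose by 2.94 (SE 0.32, adjusted p = 1.2e-05) at 10 µM, from 10.7 ± 2.90 to 82.2 ± 7.23 CPM.

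The 8 largest falls at 10 µM were at ANPEP, CTSB, IL1R1, JAKMIP2, MERTK, NIPSNAP1, TACC1 and WWP2. IL1R1 is the receptor of interleukin 1. Its peak (chr2:102155919-102156419) held 50.2, 59.3 and 49.6 CPM in the controls, 39.5, 37.1 and 30.3 at 2 µM, and 4.43 and 5.00 at 10 µM. It fell at both doses, by 0.61 (SE 0.14, adjusted p = 0.00175) and by 3.51 on the log2 scale (SE 0.21, adjusted p = 4.51e-15), with no overlap between doses. Its RNA held 127, 126 and 220 CPM in the controls, 73.0, 89.5 and 128 at 2 µM, and 35.9, 46.0 and 41.4 at 10 µM, and fell by 1.94 on the log2 scale (SE 0.27, adjusted p = 7.16e-05). The promoter peak of IL1R1 changed by only -0.08. In bulk samples such a fall in RNA does not tell fewer expressing cells from less RNA per cell.

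ANPEP encodes aminopeptidase N, a peptidase of the bile canaliculus. Its peak (chr15:89806553-89807053), which holds the start shown above, had 63.1, 70.0 and 61.2 CPM in the controls, 70.4, 58.1 and 47.1 at 2 µM, and 7.65 and 9.79 at 10 µM. It fell by 2.92 on the log2 scale at 10 µM (SE 0.20, adjusted p = 5.74e-14), where both libraries lay far below all others. ANPEP RNA held 134, 98.5 and 162 CPM, then 125, 81.7 and 226, then 23.5, 22.9 and 23.9, and fell by 2.49 on the log2 scale (SE 0.32, adjusted p = 4.34e-05). The peak that the annotation puts at its promoter changed by -0.16 and did not pass.

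HPN, chosen after its values were seen, encodes hepsin, a membrane serine protease of hepatocytes. Its peak (chr19:35042213-35042713) held 21.3, 27.7 and 25.9 CPM in the controls, 24.7, 22.7 and 22.1 at 2 µM, and 4.43 and 4.57 at 10 µM, a fall of 2.49 on the log2 scale (SE 0.21, adjusted p = 8.97e-12). Its RNA varied widely among the controls, at 85.7, 33.0 and 194 CPM, held 72.7, 42.1 and 123 at 2 µM, and lay at 0.86, 1.69 and 1.54 at 10 µM, a fall of 6.25 on the log2 scale (adjusted p = 7.74e-06). The line is known as hepatocyte-like by 7 liver markers, AFP, TTR, APOA1, APOB, SERPINA1, FGB and HNF4A. They summed to 26400 CPM at 0 µM, 12100 at 2 µM and 728 at 10 µM. At 0 µM APOB (13900) and AFP (6400) made up most of the sum. Not all followed it at 2 µM: FGB had means of 433 at 0 µM and 484 at 2 µM, and HNF4A 288 and 261. All had their lowest mean at 10 µM. ALB was also planned as a marker and has no value here. The part of these markers in the falls of liver genes named by these peaks was not tested.

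MERTK, a receptor tyrosine kinase that takes part in the clearance of dying cells, had the largest fall of all 916 peaks. The peak (chr2:111944793-111945293) held 30.3, 23.9 and 21.4 CPM in the controls, 22.0, 20.6 and 21.8 at 2 µM, and 1.48 and 3.04 at 10 µM (-3.56, SE 0.27, adjusted p = 5.83e-13). Its RNA fell much less, from a mean of 98.2 to 58.7 CPM (-0.74, adjusted p = 0.00316), and its promoter peak changed by -0.02 and did not pass.

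NIPSNAP1, a mitochondrial protein, fell in both assays: its peak went from 10.4 ± 0.70 to 1.36 ± 0.22 CPM (-2.94, adjusted p = 2.39e-09) and its RNA from 233 ± 84.0 to 39.7 ± 2.04 CPM (-2.55, adjusted p = 4.72e-06). ETFB, a subunit of the mitochondrial electron transfer flavoprotein and chosen after its values were seen, fell by 1.02 on the log2 scale in its peak and by 2.93 in RNA. TACC1, a centrosomal protein, fell by 2.58 in its peak and by 2.08 in RNA on the log2 scale, and TNFRSF19, a receptor of the tumour necrosis factor family, by 1.87 and 2.72. JAKMIP2 fell by 2.89 on the log2 scale in its peak, and its RNA had 63, 58 and 0 counts at the 3 doses.

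Other falling peaks had RNA that did not fall. WWP2, a ubiquitin ligase, had a peak that fell from 23.1 ± 2.35 to 3.36 ± 1.71 CPM (-2.88, adjusted p = 1.9e-11) while its RNA rose by 0.65 (adjusted p = 0.00964). UCK2, chosen after its values were seen, encodes uridine-cytidine kinase, which phosphorylates cytidine analogues such as 5-azacytidine. Its peak, at -7505 bases from the annotated start, held 14.8, 13.1 and 11.4 CPM in the controls, 11, 9.28 and 9.82 at 2 µM, and 2.01 and 2.61 at 10 µM, a fall of 2.52 on the log2 scale (SE 0.28, adjusted p = 2.15e-09). UCK2 RNA stood at 79.0 ± 15.8, 72.4 ± 12.5 and 72.6 ± 1.98 CPM and passed no test. CTSB, the lysosomal protease cathepsin B, had 2 UTR peaks that fell by 3.19 and 1.06 on the log2 scale, and its RNA did not pass at 10 µM (-0.54, adjusted p = 0.0895).

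Only 23 peaks fell at 2 µM, and several of these fell further at 10 µM. FREM1, an extracellular matrix protein, had the largest of these falls. Its peak (chr9:14869196-14869696) held 38.8, 30.6 and 33.7 CPM in the controls, 15.5, 17.2 and 15.4 at 2 µM, and 6.71 and 9.57 at 10 µM, with changes of -1.10 (SE 0.16, adjusted p = 6.91e-06) and -2.11. Its RNA went from 160 ± 93.0 to 53.3 ± 39.2 to 5.33 ± 0.71 CPM, which did not pass at 2 µM (adjusted p = 0.0775) and fell by 4.90 on the log2 scale at 10 µM. With the 0 and 2 µM libraries paired by number it passed at 2 µM (-1.63, adjusted p = 0.0106), as it did with no low-count filter (1.81e-09), with the block over all doses (0.0214), without 0 µM replicate 2 (0.0396), without 2 µM replicate 3 (0.00288) and without both libraries numbered 3 (0.0002). SLC28A1, a concentrative nucleoside transporter that carries pyrimidine nucleosides into cells, had a peak that fell from 25.7 ± 3.79 to 13.7 ± 2.41 to 7.13 ± 0.98 CPM, with changes of -0.93 (adjusted p = 0.000199) and -1.86. Its RNA differed widely among controls, at 3.63, 0.90 and 14.3 CPM. It had 8 counts in all at 10 µM, and it passed the test at that dose (adjusted p = 0.000238) and not at 2 µM (0.185, and 0.0561 paired by number), where only the fit with no low-count filter, of the alternatives run, made the call (7.85e-05).

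KDM2B, a histone demethylase that binds unmethylated CpG, had a UTR peak 161 bases from its start that fell by 0.79 on the log2 scale (SE 0.15, adjusted p = 0.000212) at 2 µM and by 0.91 at 10 µM, from 34.1 ± 3.16 to 20 ± 1.52 to 18.2 ± 1.30 CPM. Its promoter peak, 337 bases away, rose at 2 µM from a mean of 5.63 to 12.7 CPM (1.16) and was back at 5.29 at 10 µM. KDM2B RNA passed no test.

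A further set of peaks was highest at 2 µM. FZR1 encodes an activator of the anaphase-promoting complex. Its peak (chr19:3520727-3521227) held 1.94, 1.5 and 1.70 CPM in the controls, 9.28, 16.5 and 13.4 at 2 µM, and 2.01 and 4.78 at 10 µM. It had the largest rise at 2 µM of all 916 peaks, 2.95 (SE 0.32, adjusted p = 5.24e-08), and fell by 2.05 on the log2 scale from 2 to 10 µM (adjusted p = 1.88e-06). No change in FZR1 RNA passed at 2 µM.

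CCR10, a chemokine receptor, had a peak (chr17:42679676-42680176) at 5.09, 3.4 and 3.79 CPM, then 14.4, 20.3 and 26.2, then 8.18 and 8.70. It rose by 2.40 (SE 0.23, adjusted p = 1.16e-08) and fell by 1.33 on the log2 scale from 2 to 10 µM (adjusted p = 1.2e-05), ending 1.08 above the controls (adjusted p = 0.00126). Its RNA did not pass at 2 µM (0.75, adjusted p = 0.341) and fell by 1.73 on the log2 scale from 2 to 10 µM (adjusted p = 0.00491).

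LAMB1, a laminin chain of basement membranes, held 4.61, 2.58 and 3.03 CPM in the controls, 13.4, 16.2 and 13.9 at 2 µM, and 4.96 and 5.87 at 10 µM in its peak (chr7:108001270-108001770). That was a rise of 2.13 (SE 0.25, adjusted p = 1.92e-07) and then a fall of 1.43 on the log2 scale (adjusted p = 1.68e-05), beside RNA that did not pass at 2 µM and fell by 1.01 at 10 µM against 0 µM. ST3GAL2, a sialyltransferase, held 5.34, 1.77 and 4.92 CPM, then 21.0, 15.1 and 13.8, then 1.34 and 3.70 (chr16:70399857-70400357), a rise of 2.11 (SE 0.30, adjusted p = 4.09e-06) and a fall of 2.81 from 2 to 10 µM (adjusted p = 1.03e-07). Its promoter peak, 22246 bases away, had the same order of doses, with means of 6.92, 16.6 and 6.33 CPM.

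USP7, a deubiquitinase, moved from 2.29 ± 1.44 to 9.74 ± 2.10 to 3.06 ± 0.91 CPM, with a rise of 2.17 at 2 µM and no RNA call in any comparison. SMPD4 and KNOP1, chosen after their values were seen, went from 3.42 ± 1.66 to 11.2 ± 0.71 to 3.11 ± 0.22 CPM and from 15.4 ± 0.88 to 25.2 ± 6.54 to 4.5 ± 1.63 CPM. Both rose at 2 µM and fell from 2 to 10 µM, and neither had an RNA call. In each of these peaks every 2 µM library lay above every other library.

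The RNA of 809 of the 867 genes passed the filter on low counts, which lets through a gene detected at 1 dose only, and these belong to 854 of the peaks. At 2 µM 19 genes rose (2.35%) and 13 fell (1.61%), where 3.22% and 1.06% of all 18999 genes tested did. With the libraries of the same number paired, in a fit of the 0 and 2 µM libraries, 10 rose and 27 fell. The count was sensitive to single libraries: 4 rose when 2 µM replicate 1 was left out and 5 when replicate 2 was, 7 or 8 with 0 µM replicate 1 or replicate 2 left out, and 35 or 37 with replicate 3 of the control or of the 2 µM dose left out. For the falls the corresponding counts were 2, 1, 4, 10, 29 and 31, and 7, 10 and 6 without each of the 10 µM libraries.

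Among the calls at 2 µM that held under each alternative, STAMBPL1, a deubiquitinase, rose from 1.63, 1.11 and 1.66 CPM to 6.95, 7.57 and 3.79 (2.06, SE 0.32, adjusted p = 0.00343), FOXC1, a forkhead transcription factor, rose by 1.88 (SE 0.33, adjusted p = 0.00765), and CDKN2B, an inhibitor of cyclin-dependent kinases, rose by 1.70 (SE 0.31, adjusted p = 0.00888). SGK1, a serum- and glucocorticoid-regulated kinase, fell from 36.2, 27.3 and 47.5 CPM to 15.4, 12.1 and 11.7 (-1.50, SE 0.24, adjusted p = 0.00393) and lay at 13.6 ± 1.75 at 10 µM. In none of the 4 did the UTR peak pass at 2 µM: their changes there were 0.33, -0.04, 0.27 and 0.04, in the order named.

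At 10 µM 205 genes rose (25.3%) and 253 fell (31.3%), against 23.0% and 25.1% of all genes. Scaling by total counts alone gave 288 and 186. It moved the median change of all genes from -0.02 to 0.24, so the split of the members into rises and falls follows the scaling. From 2 to 10 µM 186 rose (23.0%) and 192 fell (23.7%), against 16.8% and 21.6%, and 119 rose without 10 µM replicate 3.

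Peak and RNA could be set beside each other for 854 peaks. Of the 255 peaks that rose at 10 µM, 233 had a tested gene, of which 97 rose (41.6%) and 45 fell (19.3%) in RNA. Of the 145 that fell, 130 had one, of which 16 rose (12.3%) and 65 fell (50%). Of the 491 peaks with a tested gene that did not pass, RNA rose for 107 (21.8%) and fell for 153 (31.2%). All these are counts of peaks, so a gene with several peaks is counted for each. Across these 854 peaks, which share genes and libraries, Spearman's rho between the log2 changes was 0.32, and at 2 µM it was 0.25. At 2 µM, 97 of the 109 rising peaks had a tested gene, and 7 of these rose in RNA, HRH1 and TRAF1 among them, and 1 fell. The latter was USP18, an interferon-induced protease, named after its values were seen. From 2 to 10 µM, 171 rising peaks had a tested gene, of which 61 rose and 21 fell, and 141 falling ones, of which 18 rose and 54 fell.

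**Figure D3:**
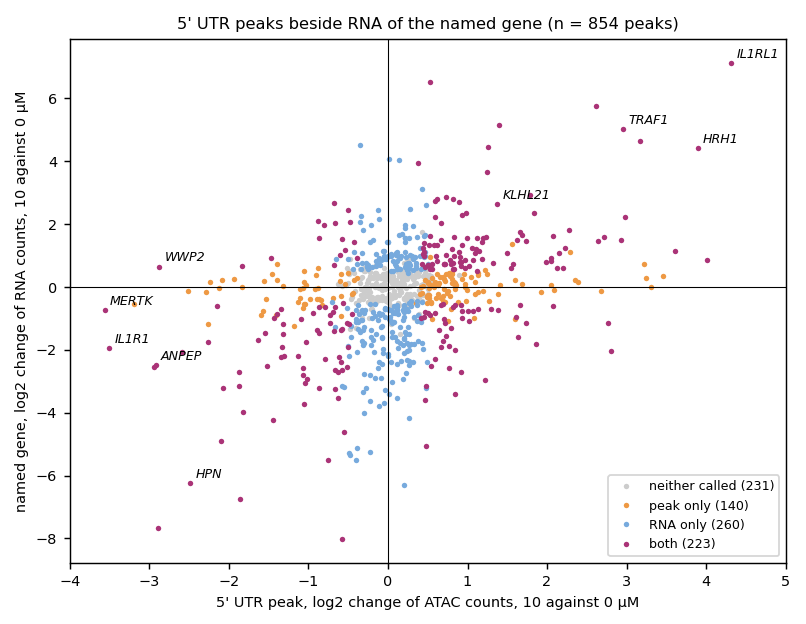
Log2 change of the 5′ UTR peak (x axis) against log2 change of its gene's RNA (y axis) at 10 µM against 0 µM for 854 peaks, coloured by which of the 2 passed the test. In 223 both passed, in 140 only the peak, in 260 only the RNA and in 231 neither, and points lie in all 4 quadrants.

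Rises in both assays included transcription factors. JUN, a subunit of AP-1, had a UTR peak that rose from 8.41 ± 0.82 to 15.8 ± 3.43 CPM (0.89, adjusted p = 0.000495) and RNA that rose from 46.6 ± 24.7 to 303 ± 25.1 CPM (2.70, adjusted p = 4.42e-05). RUNX1, chosen after its values were seen, rose by 1.24 in its peak and 1.60 in RNA. SVIL, an actin-binding protein, had a peak at -10275 bases from its annotated start that rose from 2.24 ± 1.23 to 9.09 ± 1.35 to 17.7 ± 2.40 CPM, by 2.02 and 2.93, and its RNA rose by 1.51 at 10 µM.

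RNA also changed where the UTR peak did not. FOXC1 RNA went from 1.67 ± 0.66 to 6.18 ± 1.78 to 27.5 ± 4.25 CPM, a rise of 4.03 at 10 µM, over a peak at 19.3 ± 1.62, 18.4 ± 1.00 and 20.9 ± 1.31 CPM. F11, coagulation factor XI made by hepatocytes, had a peak at 12.9, 12.8 and 12.1 CPM at 0 µM and 13.8 and 15.2 at 10 µM, beside RNA at 45.6, 30.4 and 57.6 CPM and then 0.34, 0.85 and 0.49, a fall of 6.30 on the log2 scale (SE 0.46, adjusted p = 5.8e-07). Its peak at 10 µM lay within the range of the 2 µM libraries, while its RNA at 10 µM lay far below both other doses. CTSH, a lysosomal protease, kept its peak at 15.0 ± 1.11, 14.4 ± 1.89 and 15.3 ± 1.14 CPM while its RNA fell from 274 ± 29.1 to 25.6 ± 1.83 CPM (-3.42, adjusted p = 1.36e-07). The mitotic kinesin KIF11 fell by 3.26 on the log2 scale in RNA with a peak change of -0.03. The mitotic checkpoint kinase BUB1 fell by 3.39 in RNA although its peak rose by 0.85 (adjusted p = 0.00355).

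The most accessible UTR peaks at 0 µM were those of SLC26A1, ANPEP, HSD3B7, HELZ2 and CLDN9, at means of 71.8, 64.7, 62.7, 59.7 and 53.4 CPM. SLC26A1, an anion transporter, and HSD3B7, an enzyme of bile acid synthesis, did not pass in their peaks at 10 µM (-0.22 and -0.21). Their RNA fell by 3.63 (adjusted p = 1.14e-05) and 1.85 on the log2 scale (adjusted p = 2.22e-05).

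In some genes the UTR and promoter peaks went opposite ways. MAP3K8, a kinase in inflammatory signalling, had a UTR peak that rose from 4.75 ± 1.80 to 15.3 ± 0.99 CPM (1.63, adjusted p = 6.01e-07). Its promoter peak, 861 bases away, fell from 32.3 to 10.9 CPM (-1.62), and its RNA fell from 28.3 ± 5.36 to 9.41 ± 1.94 CPM (-1.59, adjusted p = 0.000123). PTP4A1, a tyrosine phosphatase, had RNA that fell by 5.06 on the log2 scale and a promoter peak that fell by 2.30, with a UTR peak 5570 bases away that rose by 0.48. That last rise did not pass without 0 µM replicate 1 (adjusted p = 0.0891) or 10 µM replicate 2 (0.0652).

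**Figure D4:**
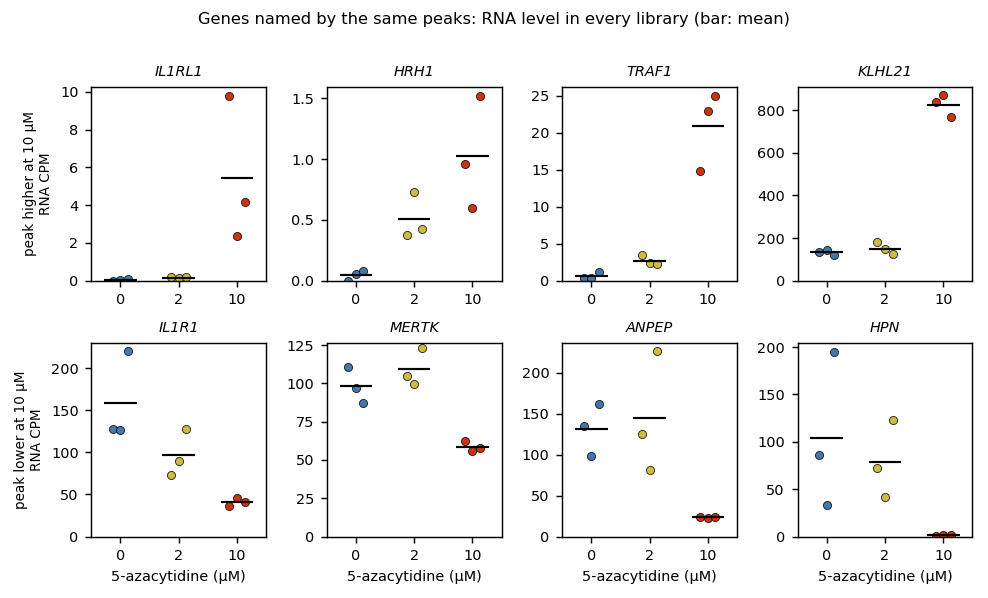
RNA CPM (y axis, its own scale in each panel) of 8 genes named by 5′ UTR peaks, by dose in µM (x axis), with a point per library and bars at the mean. IL1RL1, HRH1, TRAF1 and KLHL21 are highest at 10 µM, and IL1R1, MERTK, ANPEP and HPN lowest.

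Over the set, 737 peaks had a promoter-class peak of the same gene, at a median gap of 328 bases, and 507 were within 1000 bases of it. Of 197 such UTR peaks that rose at 10 µM, the promoter peak rose in 64, fell in 19 and did not pass in 114, and the median change was 0.88 for the UTR peaks and 0.21 for the promoter peaks. Of 108 that fell, the promoter peak rose in 14, fell in 29 and did not pass in 65, with medians of -1.03 and -0.08. The smaller medians of the promoter peaks stand beside the fact that the UTR peaks here were picked by their own call. At 2 µM, of 90 rising UTR peaks the promoter peak rose in 16, fell in 3 and did not pass in 71. Where the UTR peak did not pass, the promoter peak rose in 54 and fell in 48 of 432 at 10 µM. At 2 µM it rose in 35 and fell in 39 of 630. These shares were not tested against each other.

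**Figure D5:**
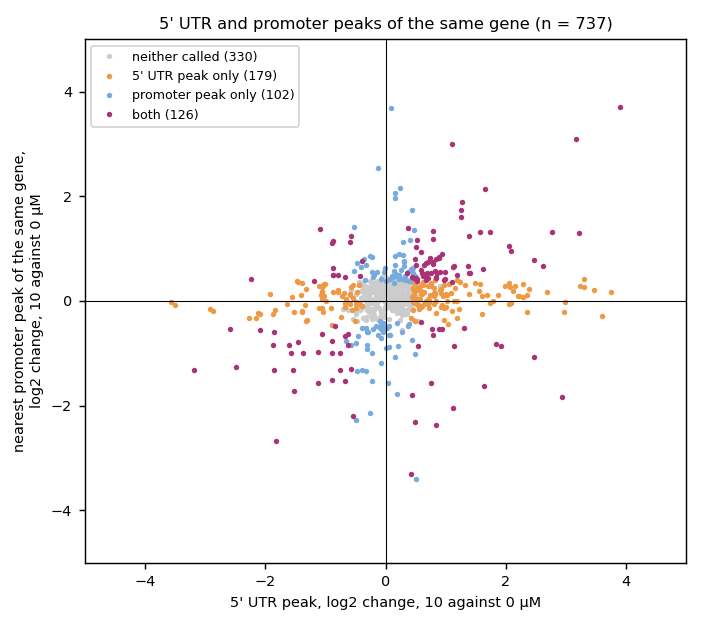
Log2 change at 10 µM against 0 µM of the 5′ UTR peak (x axis) and of the nearest promoter-class peak of the same gene (y axis) for 737 peaks. In 126 both passed the test, in 179 only the UTR peak, in 102 only the promoter peak and in 330 neither.

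Of the 44 genes with 2 or more UTR peaks, 11 had every peak rise at 10 µM, among them VMP1, CALM2 and ZFP36L1, 3 had every peak fall (KDM2B, CTSB and TRG-AS1), and 2 had peaks that passed in both directions (RERE and LTB4R). In 14 some peaks rose and the rest did not pass, in 9 some fell, and in 5 none passed. LTB4R, a receptor of leukotriene B4, had adjacent peaks: the one at chr14:24315169-24315669 fell from 20.2 ± 2.72 to 13.3 ± 0.35 CPM (-0.59, adjusted p = 0.00512), and the one at chr14:24315748-24316248 rose from 46.8 ± 2.41 to 77.8 ± 2.33 CPM (0.73, adjusted p = 1.54e-05). Its RNA passed no test. ATF4, a transcription factor of the integrated stress response, had a peak that rose by 1.49 at 10 µM (adjusted p = 8.72e-08) and another, outside the RefSeq span of the gene, that did not pass (0.11), beside RNA that rose by 1.08. CDKN1A, the cell cycle inhibitor p21, had a peak that fell by 0.87 (adjusted p = 0.00301, and 0.109 without 10 µM replicate 1) and another that did not pass, beside RNA that rose by 1.56.

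There were 56 peaks in 53 genes whose RNA was below 0.1 CPM at 0 µM. Of these 23.2% rose and 3.57% (2 peaks) fell at 2 µM, against 11.2% and 2.44% of the other 5′ UTR peaks, and 37.5% rose and 23.2% fell at 10 µM, against 27.2% and 15.3% of the others. They include DIO2, HRH1 and IL1RL1. IL1RL1 RNA held 0, 0.03 and 0.08 CPM in the controls, 0.18, 0.15 and 0.17 at 2 µM, and 9.76, 2.36 and 4.19 at 10 µM, a rise of 7.12 (SE 0.75, adjusted p = 8.63e-06) from 4 counts in all controls.

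Of all 18999 genes tested in RNA, 809 had a 5′ UTR peak. At that share a list of 20 to 65 genes would hold few, and the counts in the lists were not tested against it. Of 9 gene lists, 4 had no 5′ UTR peak, namely 53 cancer-testis antigens and the markers of leukocytes (25), fibroblasts (20) and cholangiocytes (20). Of 65 liver identity genes only FOXA2, a pioneer transcription factor, had one, and it did not pass. Of 22 genes of DNA methylation only TET1, which oxidises methylcytosine, had one. Its peak went from 9.49 ± 0.93 to 5.92 ± 1.30 CPM (-0.63, adjusted p = 0.0326), which did not pass without 0 µM replicate 1 (0.0504), without 10 µM replicate 2 (0.11) or by DESeq2 (0.0729). TET1 RNA fell from 46.7, 45.9 and 68.2 CPM to 8.54, 9.49 and 6.47 at 10 µM (-2.71, SE 0.30, adjusted p = 1.09e-05).

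Of 32 AP-1 and NF-kB genes 3 had a UTR peak. At 10 µM the peaks of JUN and FOSL2 rose, by 0.89 and 0.53, and that of NFKB2 did not pass, beside RNA that rose by 2.70 for JUN and 0.68 for NFKB2. The FOSL2 peak rise did not pass with DESeq2, or with 0 µM replicate 1 or 2 or either 10 µM library left out. Its change ran from 0.42 to 0.59 over the alternatives. FOSL2 RNA did not pass in the main fit. Over the alternatives its change ran from 0.60 to 2.13, with adjusted p from 6.65e-07 to 0.318. The RNA rise of NFKB2 did not pass with 0 µM replicate 1 or 2 or 10 µM replicate 2 or 3 left out (adjusted p from 0.0522 to 0.109). Of 63 adhesion and cytoskeleton genes 6 had one (ACTB, CLDN1, CTNNA1, DST, ITGB1 and RHOB), of which 3 peaks rose and 2 fell, and 3 genes rose and 1 fell in RNA. CTNNA1, the catenin that links cadherins to actin, went from 3.71 ± 1.33 to 13.8 ± 2.89 CPM in its peak (1.99, adjusted p = 6.49e-08) with an RNA rise of 0.79. Of 20 endothelial markers ENG alone had a UTR peak, which fell by 1.41 on the log2 scale with no RNA call. BCL2A1, which encodes BFL-1, and SQOR, the genes named in the study's title, had 4 and 6 peaks and none in a 5′ UTR.

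Of the 5 members with the start sequence inside the peak, 3 did not pass when 1 of the 10 µM libraries was left out. BCAR3 rose by 0.62 (adjusted p = 0.00135, and 0.0598 without 10 µM replicate 2), beside RNA that rose by 2.79. PIK3R3, a regulatory subunit of phosphoinositide 3-kinase, rose by 0.70 (adjusted p = 0.00451, and 0.0585 without 10 µM replicate 2) with no RNA call, and ACOT7, an acyl-CoA thioesterase, fell by 0.90 on the log2 scale (adjusted p = 0.00134, and 0.0574 without 10 µM replicate 1) with none. BCAR3, PIK3R3 and ACOT7 were chosen after their values were seen. ANPEP and ETFB, with 2 and 1 CG in the 30 bases, were those whose falls held with either 10 µM library left out.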

How the data were processed

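The authors deposited raw counts, of ATAC reads in each consensus peak and of RNA reads in each gene. DiffBind 3.12.0, DESeq2 1.42.1, HTSeq 2.0.4 and HISAT2 2.2.1 were used on hg38, per the submitters' processing notes, which name no role or order. The peak caller and the use of strand in counting are not given in the sources used here. Antisense and overlapping genes therefore cannot be told apart. The class and the named gene of each peak are the authors' annotation. A deposited table of normalized counts, a signal the authors made by dividing by a size factor per library, covers 21986 genes. In it the columns of 10 µM replicates 2 and 3 are exchanged against the raw counts, and it served only for that check.

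The quasi-likelihood F-test of edgeR 4.0.16 (R 4.3.3) was run on these counts. Each assay had 1 fit, over all its libraries and with a mean for each dose. TMM scaling and edgeR's filter on low counts came first. All 916 peaks passed this filter. Fold changes use a prior count of 0.125, each SE is the size of the log2 change divided by the root of F, and every adjusted p is Benjamini-Hochberg over all features. ± is an SD over the libraries of a dose (2 for ATAC at 10 µM, otherwise 3). Genes were matched to RNA by symbol or identifier. The scripts were tested on simulated data. Levels of different genes were not compared, since CPM is not per length; peaks all have 1 length.

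RNA libraries of the same number at 0 and 2 µM deviated together (correlations of 0.194, 0.264 and 0.283). Their numbers were therefore taken to pair them in an added fit of these 2 doses. The main fit did not pair them, so the main RNA calls at 2 µM are unpaired. Same-number RNA correlations with the 10 µM libraries ran from -0.0652 to 0.0559. ATAC libraries were not taken as paired.

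Members, gene lists and tests were chosen with earlier results of these data known. Genes were named by rule: the 8 largest rises and falls without overlap per ATAC comparison, up to 10 by RNA p, up to 4 per list, genes with several peaks, and the 5 most accessible at 0 µM. Others are said to be chosen after their values were seen. The alternatives were other scaling, other filters, DESeq2, 2 doses at a time, a replicate block and leaving out each library, plus 2 added after seeing the data. Promoter sequences are RefSeq's, on GRCh38.p14. Peak sequence was not used here.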

Additional observations from a re-analysis of the deposited data

How the results depend on the processing

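No call among the named peaks and genes turned direction under the alternatives run, but the balance of rises and falls did. With total counts the RNA split at 10 µM against 0 µM went from 205 rises and 253 falls to 288 and 186, and the peak split from 2 to 10 µM from 191 and 156 to 157 and 179. RNA from 2 to 10 µM, at 186 and 192, gave 218 and 172 with total counts, 195 and 187 with RLE size factors, 200 and 184 with DESeq2 and 203 and 195 with a block. The RNA split at 2 µM, 19 and 13, turned with no filter (35 and 47), with DESeq2 (31 and 32), without 0 µM replicate 2 (8 and 10) and with the replicate blocks given below. Of 434 calls among the named peaks and genes, 313 held under each, 190 of 274 for peaks and 123 of 160 for RNA. The counts at 10 µM against 0 µM, for peaks and RNA, and those from 2 to 10 µM, stayed within 1.5 times under each alternative, except RNA rises from 2 to 10 µM, which ranged from 119 to 222 with each library left out. At 2 µM the counts moved. The 109 peak rises became 68 with DESeq2 and 65 to 111 with a library left out, and the 23 falls became 15 with DESeq2, 45 with only these 2 doses and 16 to 49 with a library left out. The 19 RNA rises became 34 with total counts, 35 with no filter, 31 with DESeq2, 6 with only these 2 doses and 4 to 37 with a library left out. The 13 RNA falls became 6, 47, 32 and 5 under the first 4 of these, and 1 to 31. Leaving out both libraries numbered 3 at 0 and 2 µM, an alternative chosen after seeing the data, gave 64 rises and 54 falls. The causes were not tested.

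With a replicate block fitted across the 3 doses, 24 genes fell in RNA at 2 µM and 19 rose. With the block over the 0 and 2 µM libraries alone, 10 rose and 27 fell. There the numbers were taken to pair the RNA libraries, which the labels do not say. This fit was chosen after seeing the data. For ATAC the same-number correlations ran from -0.224 to 0.134, and the libraries were not taken as paired. Deviations from a mean of 2 or 3 libraries cancel out within a dose, so these correlations cannot decide whether the libraries were paired. The block gave 100 rises and 17 falls at 2 µM and 237 and 139 at 10 µM. The RNA calls of STAMBPL1, FOXC1, CDKN2B and SGK1 at 2 µM held with either block. Peak counts as low as 3 in a library, and only 2 libraries at 10 µM, limit the precision of the ATAC values.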

Other observations

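The UTR peak of HAAO, an enzyme of tryptophan breakdown chosen after its values were seen, stood at 8.26 ± 2.73 CPM (SD, n = 3) at 0 µM, 16.0 ± 2.23 (n = 3) at 2 µM and 4.77 ± 1.25 (n = 2) at 10 µM. It rose by 0.97 at 2 µM and fell by 1.76 on the log2 scale from 2 to 10 µM. Its RNA stood at 24.4 ± 3.73, 30.1 ± 8.15 and 5.00 ± 0.78 CPM (SD, n = 3 each) and fell by 2.28 on the log2 scale at 10 µM against 0 µM. ST6GAL1, a sialyltransferase of the liver, fell by 1.82 on the log2 scale in its UTR peak at 10 µM, by 2.68 in a promoter peak of the same gene and by 3.99 in RNA. CX3CL1, a membrane-bound chemokine, fell by 5.51 on the log2 scale in RNA, from 58.9 ± 3.57 to 1.28 ± 0.34 CPM (SD, n = 3 each). Of its 2 UTR peaks 1 fell at 10 µM (-0.76), which was lost without 10 µM replicate 1 (adjusted p = 0.138 by edgeR).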
